A study of Ovis aries with 2 samples.

Results

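Interferon-stimulated genes are the set of antiviral and signalling genes that cells switch on after an interferon binds its receptor. A list of 37 such genes was followed here in the blood mononuclear cells of sheep, and 34 of them were found by symbol among the 26814 gene entries of the deposited tables. BST2, SAMD9 and SP100 were not matched by symbol and are not analysed here. The series title describes weaned lambs. In the A.G.-ES group a suture that releases astragaloside IV and glycyrrhizic acid was embedded at the acupuncture point ST36 on both sides, and the untreated group received nothing. Blood cells of both groups were separated on a density gradient and used fresh, without culture. The labels give 1 single-cell library per group and state neither the number of animals in a library, nor a dose, nor the time between embedding and blood collection.

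Type I interferons bind the receptor pair IFNAR1 and IFNAR2, and the kinases JAK1 and TYK2 then activate transcription factors, among them STAT2, which works with IRF9 to switch on the genes described here. Interferon gamma uses the receptor pair IFNGR1 and IFNGR2. Many of the induced genes are themselves sensors or signalling factors, so that a cell that has met interferon is primed for a later virus. Monocytes and B cells of the blood carry Toll-like receptors, and T and NK cells are the main source of interferon gamma.

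Transcripts were counted by unique molecular identifiers (UMIs). The files held 55861418 untreated and 44485442 A.G.-ES UMIs, and 7565 and 8737 cells were kept, with medians of 5123 and 4101 UMIs. Y-linked genes gave 40414 untreated and 755 A.G.-ES UMIs, and whatever that reflects cannot be told apart from the treatment in any comparison. The libraries shared 61 cell barcodes. With 1 library per group no test between the groups was possible. Every interval is a 95% interval for counting error only, and no difference has a replicate check. Cells were sorted into 6 classes by marker genes. The classes held 3448 untreated and 1787 A.G.-ES B cells, 402 and 1541 CD4 T cells, 260 and 726 CD8B T cells, 2141 and 1089 T cells with a UMI of SOX13 or RHEX, 88 and 325 cells with a UMI of NCR1, KLRF1 or NCAM1, and 173 and 266 monocytes. No class took 1053 and 3003 cells, mostly T cells without a UMI of a single lineage. The gate for NK cells does not isolate NK cells: only 35 of 88 and 42 of 325 of its cells lay under the T-cell marker threshold, and TYROBP, an adaptor of NK receptors, was at 57.5 CPM (UMIs per 1000000) in the untreated and 6.39 CPM in the A.G.-ES library. These cells are called NCR1-gated below.

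The summed level of the 34 genes moved in different directions in different classes. In monocytes it was 2187 CPM (2087 to 2290) without and 3503 CPM (3415 to 3592) with A.G.-ES, a ratio of 1.60 (1.52 to 1.69). In SOX13/RHEX T cells it was 896 and 1111 CPM (ratio 1.24, 1.20 to 1.28). In B cells it was 1527 and 1831 CPM (ratio 1.20, 1.18 to 1.22). In NCR1-gated cells it was 1489 and 1660 CPM (ratio 1.11, 1.01 to 1.23), and this direction did not hold in cells with at least 2 UMIs of the gating genes (log2 −0.024). Keeping doublets or weighting cells equally brought the same sum close to no difference (log2 0.029 and 0.035, from 0.16). The 2 remaining classes went the other way, from 1893 to 1513 CPM in CD4 T cells (ratio 0.799, 0.771 to 0.829) and from 1945 to 1478 CPM in CD8B T cells (ratio 0.760, 0.728 to 0.793). In the untreated library the order was monocytes, CD8B T, CD4 T, B, NCR1-gated and SOX13/RHEX T cells, and the intervals of CD8B T and CD4 T cells overlapped, as did those of B and NCR1-gated cells. In the A.G.-ES library the order was monocytes, B, NCR1-gated, CD4 T, CD8B T and SOX13/RHEX T cells, with overlapping intervals for CD4 T and CD8B T cells alone among neighbours.

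**Figure D1:**
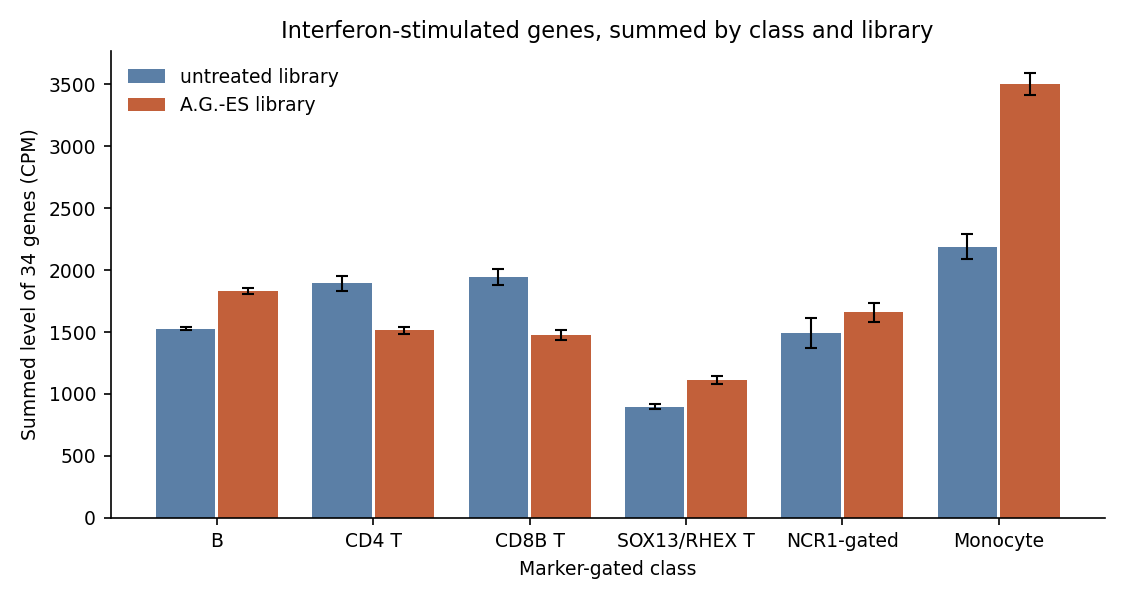
Summed level of the 34 interferon-stimulated genes in CPM (vertical axis) for each marker-gated class, with bars for the untreated (blue) and A.G.-ES (orange) library and 95% Poisson intervals for counting error. The bar of A.G.-ES monocytes, at 3503 CPM, is the tallest, and the CD4 T and CD8B T bars are lower in A.G.-ES than in untreated cells.

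The levels are shares of each class's own UMIs, and the typical gene was itself lower with A.G.-ES. The median log2 ratio of all genes with at least 20 UMIs was −0.11 in B, −0.16 in CD4 T, −0.31 in CD8B T, −0.12 in SOX13/RHEX T, −0.16 in NCR1-gated cells and −0.05 in monocytes. Measured from that median, the summed log2 ratio was 0.37 in B, 0.43 in SOX13/RHEX T and 0.32 in NCR1-gated cells, but −0.16 in CD4 T and −0.088 in CD8B T cells. The lower sum in CD8B T cells (log2 −0.40) thus stood beside a typical gene at −0.31.

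Counts of single genes showed the same division. A gene was counted where it had at least 20 UMIs over both libraries in a class, and called where the libraries were at least 1.5-fold apart. In B cells all 34 were counted, and 17 were higher and 0 lower with A.G.-ES, against 14.0% of all genes higher and 18.4% lower. Without RSAD2, whose level in B cells lies near background, 16 of 33 were higher. In monocytes 20 of 31 were higher (background 14.6%) and 1 lower (15.8%). In SOX13/RHEX T cells 9 of 31 were higher (9.62%) and 1 lower (15.5%). In NCR1-gated cells 5 of 22 were higher (11.3%) and 0 lower (21.8%). Split at the T-cell marker threshold, the NCR1-gated cells under it had 1 of 9 higher (background 15.003%) and 3 lower (22.3%). Those at or over it had 3 of 20 higher (17.9%) and 2 lower (24.2%). The excess of higher members over all genes in the class was thus not seen in either subset, though 9 and 20 members are few. In CD4 T cells 0 of 31 were higher (10.6%) and 9 lower (17.7%). In CD8B T cells 3 of 29 were higher (10.5%) and 12 lower (32.2%), so that the share of lower genes stood near that of all genes in this class. The intervals excluded a ratio of 1 for 16 of the 17 higher genes in B cells, 16 of 20 in monocytes and 11 of the 12 lower genes in CD8B T cells. They did so for 6 of the 9 higher genes in SOX13/RHEX T, 3 of 5 in NCR1-gated and 6 of the 9 lower genes in CD4 T cells. Scaling by the trimmed mean of M-values (TMM) changed the split to 3 higher and 6 lower in CD8B T cells and to 1 higher and 4 lower in CD4 T cells. Of the members called with TMM, 33.3% were thus higher in CD8B T and 20% in CD4 T cells. Of all genes called with TMM, 50.2% were higher in CD8B T and 57.4% in CD4 T cells. The median log2 ratio of the counted genes was 0.61 in B, 0.87 in monocytes, 0.33 in SOX13/RHEX T, −0.03 in NCR1-gated, −0.31 in CD4 T and −0.49 in CD8B T cells.

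**Figure D2:**
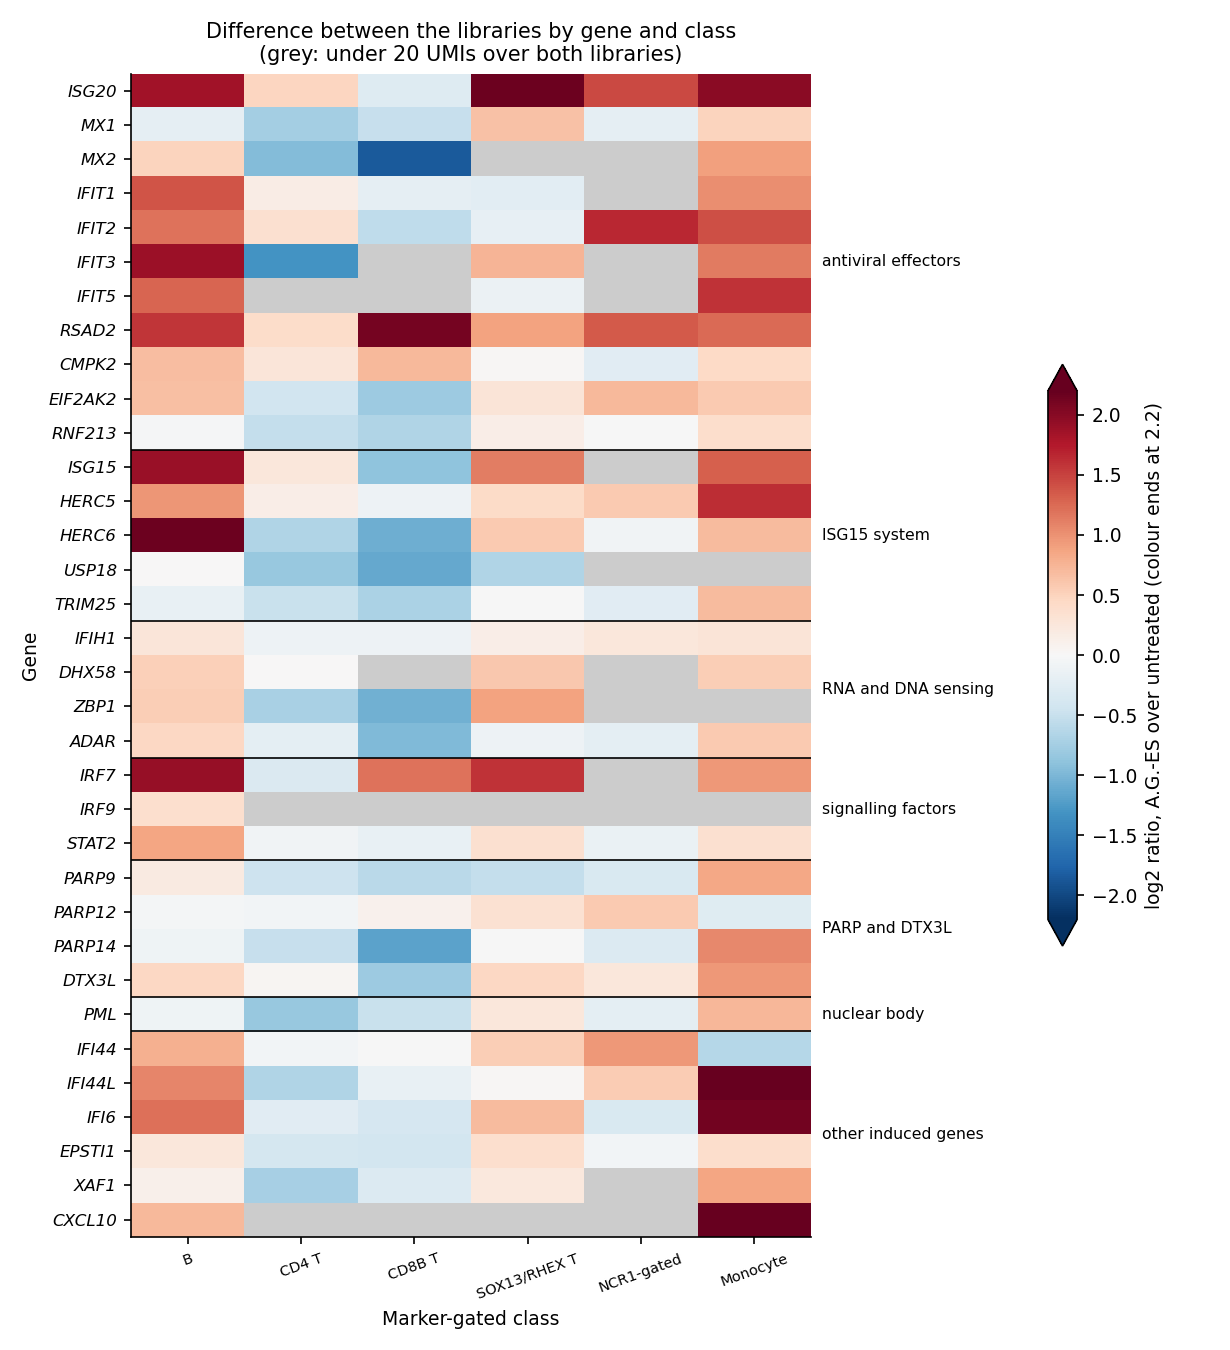
Log2 ratio of A.G.-ES over untreated for each of the 34 genes (rows, grouped by role) in each class (columns), with red for higher and blue for lower in A.G.-ES and grey for fewer than 20 UMIs over both libraries. The B and monocyte columns are mostly red, the CD4 T and CD8B T columns mostly blue, and RSAD2 is red in all 6 columns.

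The antiviral effectors stop viral entry, RNA translation or release, and 7 of 11 were higher and 0 lower in monocytes (all genes 14.6% and 15.8%). In B cells 7 of 10 were higher and 0 lower (all genes 14.0% and 18.4%), leaving out RSAD2 for its background level there. Their sum in B cells nevertheless had a ratio of 1.04 (1.01 to 1.08), and MX1 gave 7998 of its 16891 untreated UMIs. The IFIT proteins bind viral RNA that lacks the host's cap marks. In B cells IFIT1 was at 7.74 CPM untreated and 20.1 CPM with A.G.-ES (ratio 2.60, 2.15 to 3.14). IFIT3 was at 1.07 and 3.96 CPM (3.70, 2.28 to 6.03), IFIT2 at 3.34 and 7.63 CPM and IFIT5 at 1.92 and 4.66 CPM. All 4 were also higher in monocytes, where IFIT5 was at 14.4 and 43.7 CPM (ratio 3.03, 1.63 to 6.12) and IFIT2 at 26.5 and 70.5 CPM (2.66, 1.68 to 4.41). IFIT1 in T cells had ratios of 1.12 (0.646 to 2.03) in CD4 T, 0.876 (0.525 to 1.48) in CD8B T and 0.850 (0.573 to 1.24) in SOX13/RHEX T cells, and all 3 intervals include 1. IFIT3 was called lower in CD4 T (11 and 15 UMIs, log2 −1.31) and higher in SOX13/RHEX T cells (11 and 10 UMIs, log2 0.75).

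MX1, a dynamin-like GTPase that traps viral nucleocapsids, went apart from the IFIT genes. In B cells it was at 251.8 CPM untreated and 220.2 CPM with A.G.-ES, from 7998 and 2223 UMIs (ratio 0.875, 0.834 to 0.917). It was the gene with the lowest ratio of the 34 in B cells. In CD4 T cells MX1 was at 80.4 and 47.8 CPM (0.595, 0.494 to 0.718) and in CD8B T cells at 66.9 and 47.3 CPM (0.706, 0.555 to 0.899). In SOX13/RHEX T cells it was at 20.1 and 31.4 CPM (1.56, 1.24 to 1.95), and in monocytes at 101 and 142 CPM (1.40, 1.09 to 1.82). Its paralog MX2 was at 80.6 and 151 CPM in monocytes (1.87, 1.43 to 2.49) and at 5.95 and 8.32 CPM in B cells (1.40, 1.07 to 1.82). On few UMIs, MX2 was called lower in CD4 T (16 and 28 UMIs, log2 −0.95) and CD8B T cells (17 and 8 UMIs, log2 −1.85). RNF213, a large ubiquitin ligase, was at 208 and 205 CPM in B cells (0.986, 0.938 to 1.04), 461 and 602 CPM in monocytes (1.31) and 312 and 197 CPM in CD8B T cells (0.632, 0.564 to 0.707). EIF2AK2, the kinase PKR that halts translation on double-stranded RNA, was at 48.3 and 76.8 CPM in B cells (1.59, 1.46 to 1.73) and at 54.9 and 89.4 CPM in NCR1-gated cells (1.63, 1.01 to 2.75). EIF2AK2 in CD8B T cells stood at 107 and 61.7 CPM (0.574, 0.471 to 0.701).

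RSAD2, which encodes viperin, a radical SAM enzyme, was called higher in 4 classes besides B cells, the same number as ISG20 and IRF7 reached over all 6 classes. In the CD8B T class it was at 22.3 CPM in untreated and 95.7 CPM in A.G.-ES cells, from 43 and 312 UMIs (ratio 4.29, 3.11 to 6.05). It was at 67.0 and 124 CPM in SOX13/RHEX T cells (1.85, 1.65 to 2.08), 39.2 and 99.5 CPM in NCR1-gated cells (2.54, 1.47 to 4.69) and 71.1 and 94.4 CPM in CD4 T cells (1.33, 1.11 to 1.59). In monocytes RSAD2 was at 19.2 and 45.4 CPM (2.36, 1.37 to 4.33). At a depth of 1500 UMIs per cell, 4.05% of untreated CD8B T cells (10 of 247, 1.96 to 7.32%) and 13.6% of A.G.-ES ones (96 of 708, 11.1 to 16.3%) had an RSAD2 UMI. Without thinning the shares were 10.0% and 28.5%. In B cells RSAD2 came to 19 and 18 UMIs, at 0.598 and 1.78 CPM. That is 0.842% and 1.89% of its CD4 T level, beside 0.142% and 0.984% for CD2 and 0.191% and 0.798% for THEMIS, genes of T cells that the gates did not use. The RSAD2 value in B cells lies near what free T-cell RNA leaves there and is not read as expression. Its neighbour CMPK2, a nucleotide kinase gene, was at 17.6 and 28.8 CPM in CD8B T cells (1.64, 1.09 to 2.50) and at 23.8 and 28.8 CPM in CD4 T cells (1.21, 0.887 to 1.68). ISG20, an exonuclease of RNA, was at 20.9 and 57.5 CPM in NCR1-gated cells (2.75, 1.31 to 6.65) and at 7.22 and 28.5 CPM in monocytes (3.95, 1.69 to 11.3).

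The ISG15 system attaches a ubiquitin-like protein to targets. ISG15 is that protein, HERC5 and HERC6 are ligases of the family that attaches it, USP18 removes it and also blocks the interferon receptor, and TRIM25 is a ligase that activates the sensor RIG-I. These 5 genes together had a ratio of 1.49 (1.41 to 1.57) in B cells, with 3 higher (all genes 14.0%). In CD8B T cells their ratio was 0.609 (0.541 to 0.686), with 4 lower (all genes 32.2%). In monocytes all 4 that could be counted were higher (all genes 14.6%), and the ratio of the sum was 2.35 (2.03 to 2.72). In B cells ISG15 was at 16.2 CPM in untreated and 60.9 CPM in A.G.-ES cells, from 516 and 615 UMIs (ratio 3.75, 3.33 to 4.22). In monocytes ISG15 was at 201 and 501 CPM (2.49, 2.11 to 2.96). At equal depth 2.13% (1.67 to 2.69%) and 6.05% (4.97 to 7.28%) of B cells and 18.8% (13.0 to 25.9%) and 38.2% (32.2 to 44.6%) of monocytes had an ISG15 UMI. Without thinning the shares were 6.58% and 11.9% of B cells and 33.5% and 65.4% of monocytes. The T-cell classes and the NCR1-gated cells of the A.G.-ES library all lay between 10.1 and 12.2 CPM of ISG15. In the untreated library they ranged from 4.98 CPM in SOX13/RHEX T to 18.7 CPM in CD8B T cells. The 18.7 CPM came from 36 UMIs, and without the cell with the most ISG15 UMIs 15 remained, at 7.78 CPM. ISG15 is 1 of the 4 genes of this system called lower in CD8B T cells, and that call rests on this cell.

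HERC6 had the widest contrast between B and CD8B T cells. In B cells it was at 2.11 and 9.41 CPM, from 67 and 95 UMIs (4.46, 3.23 to 6.19). CD4 T cells had it at 121 and 76.8 CPM (0.634, 0.546 to 0.738) and in CD8B T cells at 101 and 48.2 CPM (0.476, 0.383 to 0.591). The HERC6 level of A.G.-ES B cells was 12.3% of the CD4 T level, above the 0.798% and 0.984% of the T-cell genes named above, and the level of untreated B cells was 1.74%. HERC5 was at 21.8 and 42.8 CPM in B cells (1.96, 1.73 to 2.21) and at 12 and 37.3 CPM in monocytes (3.10, 1.58 to 6.77), with ratios of 1.11 in CD4 T and 0.921 in CD8B T cells. USP18 was higher in no counted class: its level in B cells was 12.8 and 13.0 CPM (1.01, 0.823 to 1.23), and it was lower in SOX13/RHEX T (0.629, 0.401 to 0.962), CD8B T (0.456, 0.266 to 0.776) and CD4 T cells (0.563, 0.320 to 1.02). Monocytes had 0 and 14 USP18 UMIs, under the minimum of 20. TRIM25 was at 79.5 and 70.7 CPM in B cells (0.890, 0.818 to 0.967), 95 and 58.3 CPM in CD8B T cells (0.614, 0.499 to 0.756) and 56.5 and 91.4 CPM in monocytes (1.62, 1.16 to 2.29).

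**Figure D3:**
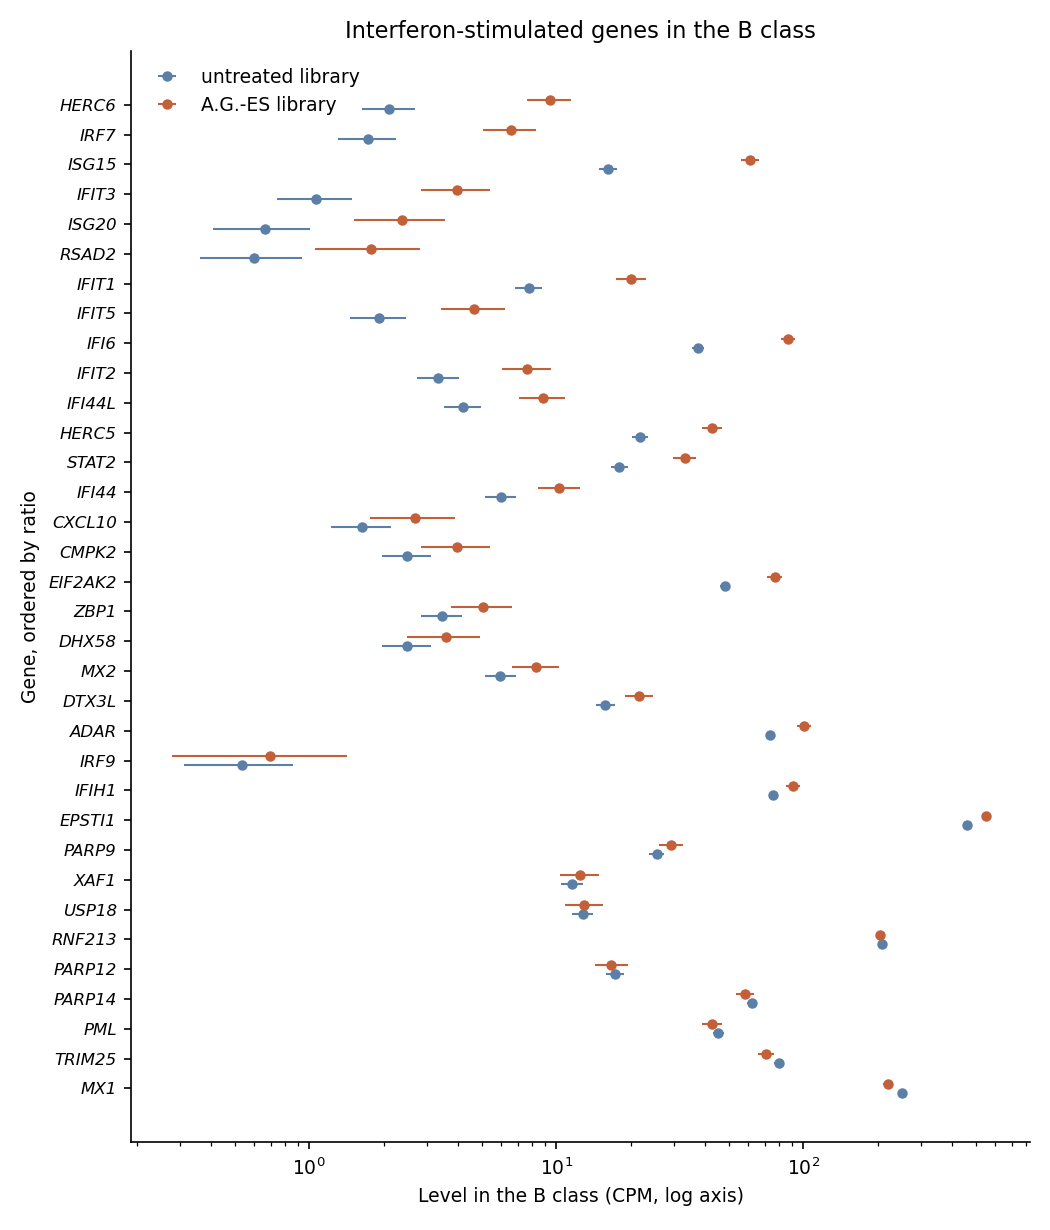
Level of each of the 34 genes in the B class in CPM (horizontal log axis) in the untreated (blue) and A.G.-ES (orange) library, ordered by ratio, with 95% Poisson intervals for counting error. HERC6, IRF7 and ISG15 at the top are furthest apart, and MX1, at 251.8 and 220.2 CPM, is at the bottom.

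Of the 4 sensors of foreign or edited RNA and DNA, 0 were called in B cells, while in CD8B T cells 2 of 3 were lower (all genes 32.2%). IFIH1, the sensor MDA5, was between the limits of 1.5-fold in all 6 classes, with 75.6 and 90.6 CPM in B cells (1.20, 1.11 to 1.29) and 140 and 130 CPM in CD8B T cells (0.927, 0.793 to 1.08). ADAR, which edits double-stranded RNA, was at 73.5 and 101 CPM in B cells (1.37, 1.27 to 1.47) and at 42.6 and 21.8 CPM in CD8B T cells (0.512, 0.367 to 0.712). The sensors ZBP1, with 110 and 51 UMIs in B cells (1.46), and DHX58, with 79 and 36 (1.43), had few UMIs elsewhere. ZBP1 was called lower in CD4 T (16 and 33 UMIs) and CD8B T cells (16 and 13) and higher in SOX13/RHEX T cells (10 and 10), and DHX58 higher in SOX13/RHEX T cells (11 and 9), each with an interval that includes 1.

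Among the signalling factors IRF7, the factor that amplifies type I interferon, was higher in 4 of the 5 classes where it could be counted. It was at 1.73 and 6.54 CPM in B cells (3.78, 2.60 to 5.50), 7.78 and 17.8 CPM in CD8B T cells (2.29, 1.28 to 4.34) and 2.2 and 6.62 CPM in SOX13/RHEX T cells (3.01, 1.65 to 5.64). In CD4 T cells IRF7 was at 6.54 and 5.27 CPM (0.805, 0.426 to 1.61). STAT2 was at 18.0 and 33.1 CPM in B cells (1.83, 1.60 to 2.10) and between the limits in the other 5 classes. IRF9, its partner, reached the minimum in B cells alone, with 17 and 7 UMIs.

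PARP9 and DTX3L act together on interferon-driven transcription, and PARP12 and PARP14 transfer ADP-ribose to proteins. None of these 4 was called in B cells, where PARP14 was at 61.8 and 58.1 CPM (0.941, 0.857 to 1.03). In CD8B T cells 3 of the 4 were lower, beside 32.2% of all genes. PARP14 was at 89.3 and 39.6 CPM (0.444, 0.350 to 0.561), DTX3L at 41.0 and 23.6 CPM (0.576) and PARP9 at 57.6 and 38.1 CPM (0.661). Their log2 ratios were −1.17, −0.79 and −0.60, beside −0.31 for the typical gene of that class. In monocytes the same 3 were higher (all genes 14.6%), with PARP9 at 26.5 and 47.7 CPM (1.80, 1.12 to 3.03). PARP12 stayed between the limits in all 6 classes. PML, the organiser of nuclear bodies, was at 45.4 and 42.7 CPM in B cells (0.941), 59.4 and 33.1 CPM in CD4 T cells (0.558, 0.448 to 0.698) and 20.4 and 33.8 CPM in monocytes (1.65, 0.949 to 3.03), where thinning of the cells gave a log2 ratio of −0.29.

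The last genes have less settled roles. IFI6, a mitochondrial and reticulum protein that opposes flavivirus replication, was at 37.6 and 86.9 CPM in B cells (2.31, 2.12 to 2.53), 26.5 and 116 CPM in monocytes (4.38, 2.81 to 7.15), 47.0 and 76.3 CPM in SOX13/RHEX T cells (1.62, 1.40 to 1.88) and 164 and 138 CPM in CD4 T cells (0.845, 0.748 to 0.958). EPSTI1 carried 30.1% and 30.0% of the B-cell UMIs of the list and was at 460 and 550 CPM (1.19, 1.16 to 1.23). It was between the limits in all 6 classes, with 540 and 709 CPM in monocytes (1.31, 1.18 to 1.47) and 296 and 228 CPM in CD4 T cells (0.768, 0.701 to 0.843). CXCL10, a chemokine that draws activated T cells, had 4 UMIs in 3 untreated monocytes and 99 UMIs in 44 A.G.-ES monocytes, at 4.81 and 57.6 CPM (12, 4.54 to 44.8). IFI44 was the 1 gene lower in monocytes, at 65.0 and 41.9 CPM (0.646, 0.447 to 0.936), while it was higher in B cells, at 5.98 and 10.3 CPM (1.72, 1.34 to 2.2), a call that thinning of the cells ended (log2 −0.067). XAF1 was at 22.9 and 13.9 CPM in CD4 T cells (0.605, 0.426 to 0.870) and at 21.7 and 39.6 CPM in monocytes (1.83, 1.08 to 3.27). IFI44L was at 26.6 and 16.9 CPM in CD4 T cells (0.635, 0.460 to 0.885) and at 4.19 and 8.82 CPM in B cells (2.11, 1.59 to 2.77).

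In B cells 3 genes held most of the UMIs, and the sum of the others differed more. Without EPSTI1, RNF213 and MX1, the 3 with the most UMIs over all cells, the remaining 31 summed to 607 and 856 CPM in B cells (ratio 1.41, 1.38 to 1.45) and to 1085 and 2051 CPM in monocytes (1.89, 1.76 to 2.04). The same 31 in CD8B T cells summed to 1312 and 1042 CPM (0.794, 0.754 to 0.836).

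The direction in B cells was next set beside that in CD8B T and NCR1-gated cells. Of 29 genes counted in both B and CD8B T cells, the ratios of 21 lay on opposite sides of 1, and the ratio in B cells was the larger in 26, with a median difference of 1.09 on the log2 scale. Centring each class on its typical gene left 15 of the 29 on opposite sides. RSAD2, with its B-cell value near background, IRF7 and CMPK2 were called higher in both, and ISG15, HERC6 and EIF2AK2 higher in B and lower in CD8B T cells. The ISG15 call rests on 1 cell: 21 of the 36 ISG15 UMIs of untreated CD8B T cells came from a single cell, and without the cell with the most ISG15 UMIs in each library the log2 ratio was 0.090 in place of −0.88. HERC6 and EIF2AK2 kept log2 ratios of −1.01 and −0.80 on that count. With TMM scaling the CD8B T log2 ratio was −0.77 for HERC6. It was −0.50 for EIF2AK2 and −0.58 for ISG15, both inside the 1.5-fold limit. Thinning left EIF2AK2 inside the limit too, at −0.52. Against NCR1-gated cells, with 22 genes counted in both, the ratios of 8 lay on opposite sides of 1 and the median difference was 0.22. There, ISG20, IFIT2, IFI44 and EIF2AK2 were called higher in both, and RSAD2 too, though its B-cell value is near background, and 0 were called in opposite directions. In NCR1-gated cells IFIT2 had 2 and 18 UMIs and IFI44 9 and 50, and both intervals include 1. Counting rests on 88 untreated NCR1-gated cells, and none of these differences between classes was tested.

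**Figure D4:**
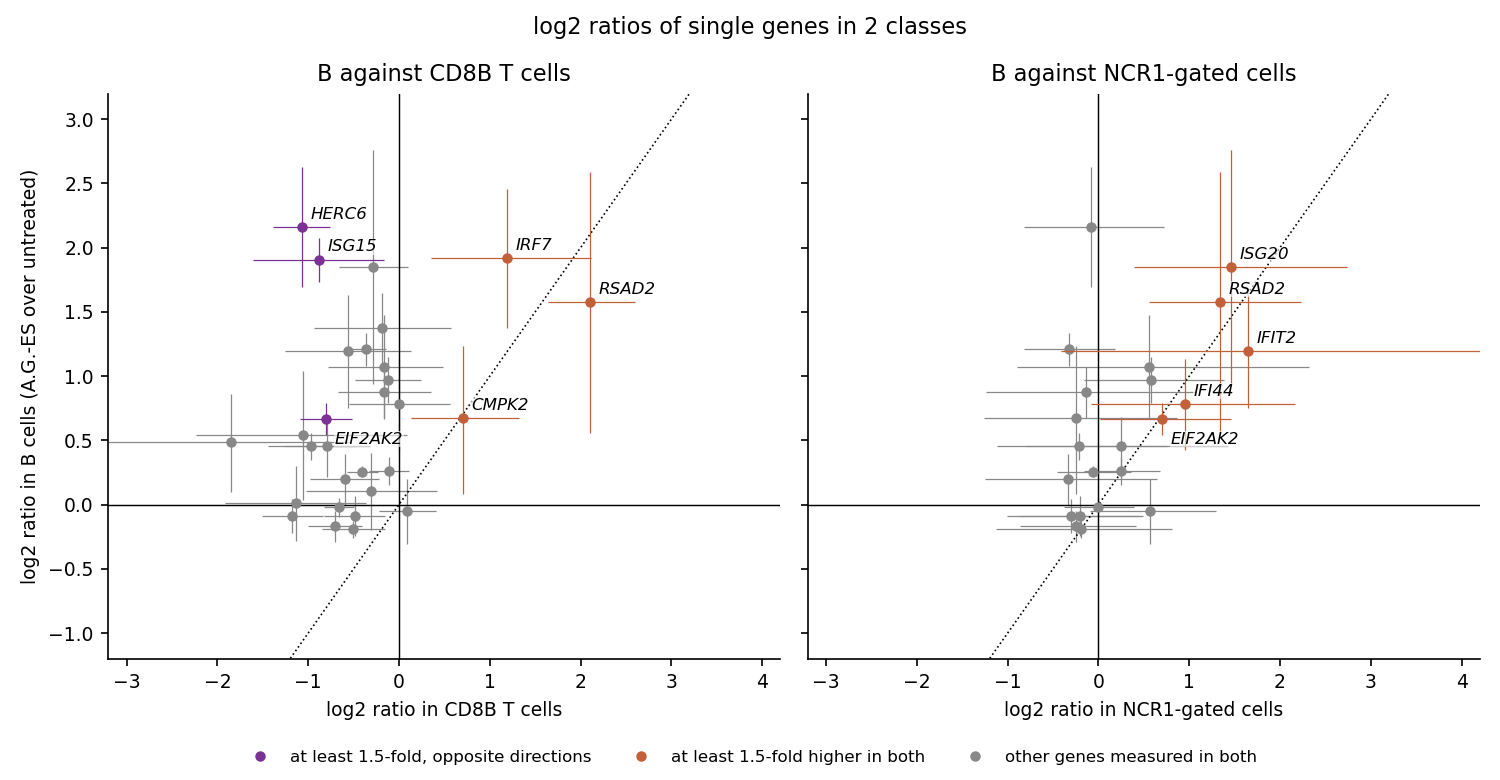
Log2 ratio (A.G.-ES over untreated) of single genes in B cells (vertical axis) against CD8B T cells (left) and NCR1-gated cells (right), with 95% intervals for counting error and a dotted line of equal ratios. In the left panel HERC6, ISG15 and EIF2AK2 lie to the upper left and RSAD2, IRF7 and CMPK2 to the upper right, and in the right panel no gene is called in opposite directions.

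Markers of cells in division were lower with A.G.-ES in B, CD4 T, CD8B T and NCR1-gated cells alike. A list of 6 cycling markers, all 6 detected in both libraries, summed to 1146 CPM in untreated and 133 CPM in A.G.-ES CD8B T cells, against 243 and 21.2 CPM in B, 365 and 81.1 CPM in CD4 T and 22.5 and 27.1 CPM in SOX13/RHEX T cells. The NCR1-gated cells had 319 and 54.7 CPM of the list, with 5 and 4 of the 6 markers detected. Without cells that carried a cycling-marker UMI, which left 154 and 666 CD8B T cells, 5 of 27 members were lower (background 27.1%) and 3 higher (11.8%), the sum had a log2 ratio of −0.29, and ISG15 was at a log2 ratio of 0.16. HERC6 stood at a log2 ratio of −1.0 and EIF2AK2 at −0.71 in those cells. In B cells without a cycling-marker UMI, 19 of 34 members were higher (background 15.2%) and 0 lower (16.1%). Antibody-secreting cell markers were also fewer in A.G.-ES B cells, at 519 and 348 CPM, with TNFRSF17 at 0 there. A subset of 663 and 681 B cells had no UMI of JCHAIN, MZB1, DERL3, TNFRSF17 or a cycling marker. XBP1 and PRDM1, also among the secretory markers summed above, were not used for it. In this subset the sum had a log2 ratio of 0.23, and 11 of 28 counted members were higher (background 11.8%) and 1 lower (15.9%). Cytotoxic granule genes, which mark T and NK cells, were at 12.4 and 59.4 CPM in the B class, with all 5 that the tables hold detected in both libraries. The part of these other cells in the results was not tested beyond those counts.

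Per cell, the B-cell difference lay in the upper tail. With each cell thinned to 1500 UMIs, the mean number of UMIs of the list was 2.33 in untreated and 2.64 in A.G.-ES B cells, and the median was 2 in both. Cells with none were 15% and 16.9%, whereas cells with at least 5 were 11.3% (10.2 to 12.4%) and 17.0% (15.3 to 18.9%). Cells with at least 10 were 1.10% (36 of 3283, 0.769 to 1.51%) and 2.97% (51 of 1719, 2.22 to 3.88%). The variance divided by the mean was 1.81 and 2.80. In monocytes the middle of the distribution differed as well, with medians of 3 and 4 and with 23.4% (16.9 to 30.9%) and 41.8% (35.7 to 48.2%) of cells at 5 or more. In SOX13/RHEX T cells the share with at least 1 UMI was 67.5% (65.4 to 69.5%) and 75.4% (72.7 to 77.9%). Among CD8B T cells 18.2% (13.6 to 23.6%) and 11.2% (8.93 to 13.7%) had 5 or more, and in CD4 T cells 17.9% (14.2 to 22%) and 11.8% (10.2 to 13.5%). One A.G.-ES CD4 T cell had 53 UMIs of the list among its 1500. Thinning left out 165 and 68 B cells, 19 and 15 monocytes and 77 and 21 SOX13/RHEX T cells as too shallow. Unthinned means were 14.1 and 10.3 UMIs per B cell, in the opposite order, beside median depths of 8707.5 and 5183 UMIs.

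**Figure D5:**
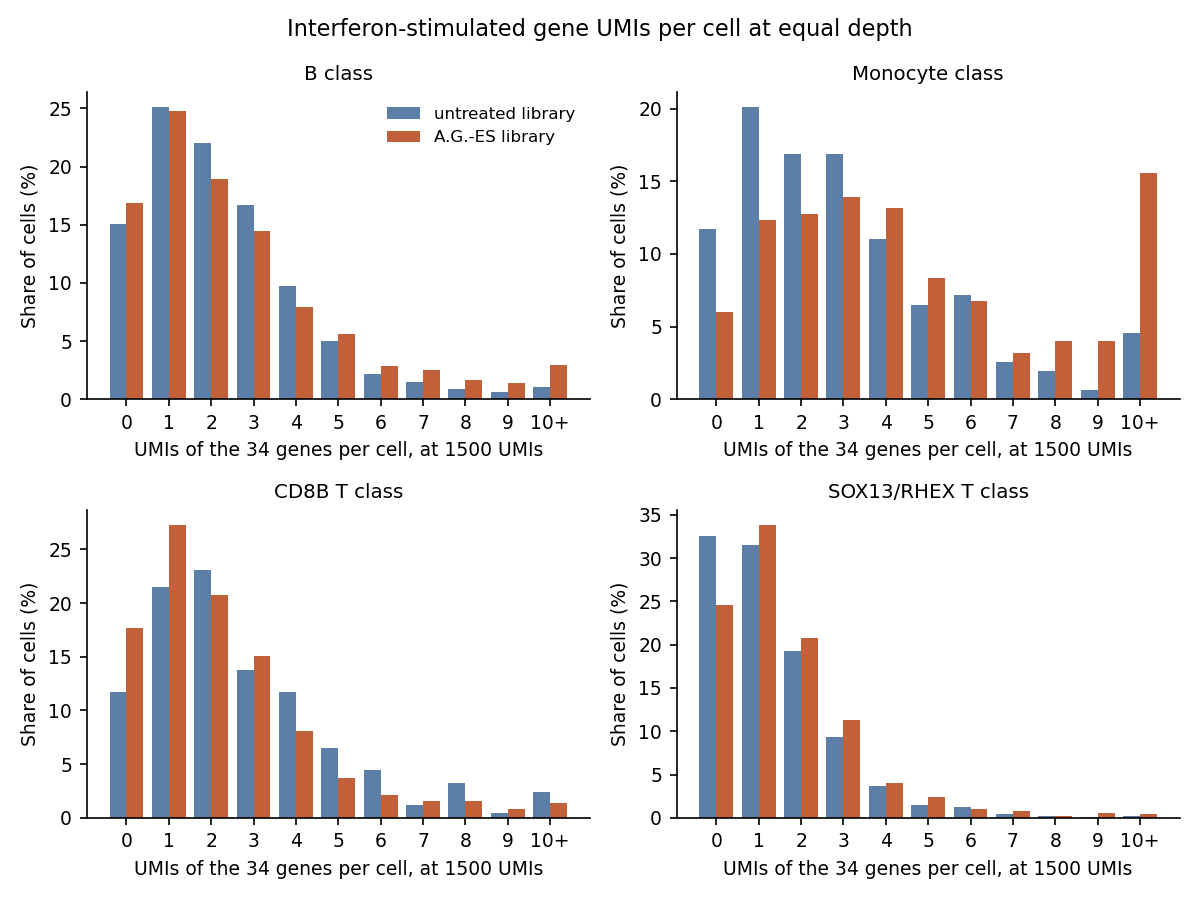
Share of cells (vertical axis, percent) by number of UMIs of the 34 genes per cell after thinning to 1500 UMIs (horizontal axis, 10 or more pooled), in 4 classes and both libraries. In B cells the bars cross, with more A.G.-ES cells at 5 and above, and in monocytes 15.5% of A.G.-ES and 4.55% of untreated cells have 10 or more.

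Several members are neighbours in the genome. In the RefSeq annotation of the sheep assembly ARS-UI_Ramb_v3.0, CMPK2 and RSAD2, MX2 and MX1, IFI44L and IFI44, HERC5 and HERC6, and PARP9, DTX3L and PARP14 adjoin with 0 protein-coding genes between each adjoining pair, and so do IFIT2, IFIT3, IFIT1 and IFIT5. Neighbours did not always move alike. HERC6 had a ratio of 0.476 and HERC5 of 0.921 in CD8B T cells, and in monocytes IFI44 was at 0.646 while IFI44L had 2 and 40 UMIs (9.68, 2.51 to 82.7). The IFIT, MX, IFI44 and HERC genes are families of related sequence, and their values are uncertain to the extent that counting could assign reads to the wrong relative.

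Counts of the other genes of the interferon pathway are read against the shares of all genes given above. None of 9 receptor and kinase genes was called in B cells, where IFNAR1 was at 91.3 and 118 CPM (1.29), IFNAR2 at 270 and 218 CPM (0.809) and JAK1 at 674 and 683 CPM (1.01). In CD8B T cells 3 of 8 were lower and 0 higher, near the 32.2% of all genes that were lower there, among them IFNAR2, at 125 and 63.2 CPM (0.508, 0.419 to 0.614), and TYK2 (0.537, 0.382 to 0.754). In CD4 T cells 2 of 8 were lower (all genes 17.7%) and 0 higher, with IFNGR2, a subunit of the interferon gamma receptor, at 151 and 53.8 CPM (0.355, 0.306 to 0.413). SOCS1, a feedback inhibitor of the kinases, was at 12.6 and 20.6 CPM in B (1.64, 1.38 to 1.94), 20.8 and 40.8 CPM in CD8B T (1.97, 1.37 to 2.87), 5.90 and 13.5 CPM in SOX13/RHEX T (2.28, 1.55 to 3.37) and 26.1 and 63.0 CPM in NCR1-gated cells (2.41, 1.23 to 5.25).

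Of 6 interferon genes listed, 3 were in the tables and only IFNG, interferon gamma, reached the minimum in any class. It had 30 and 101 UMIs in CD8B T cells, at 15.6 and 31.0 CPM (1.99, 1.31 to 3.10), and 11 and 49 UMIs in NCR1-gated cells (1.56, 0.798 to 3.32). Of 13 upstream sensing genes counted in B cells, 1 was higher (all genes 14.0%), TLR8 at 1.29 and 3.86 CPM (2.99, 1.88 to 4.76), and 3 were lower (all genes 18.4%), among them TLR9 (0.529, 0.361 to 0.756) and the kinase gene TBK1 at 72.8 and 45.8 CPM (0.628, 0.567 to 0.695). Of 7 sensing genes counted in CD8B T cells 5 were lower (all genes 32.2%) and 0 higher, with the DNA sensor gene CGAS at 34.8 and 10.4 CPM (0.300, 0.193 to 0.460). Other interferon-induced genes outside the 37 were mixed. In B cells 3 of 15 were higher and 3 lower (all genes 14.0% and 18.4%), with UBE2L6, an enzyme that charges ISG15, at 17.3 and 27.2 CPM (1.57, 1.36 to 1.82) and CD274, which encodes PD-L1, at 53.9 and 24.0 CPM (0.445, 0.387 to 0.509). In monocytes 5 of 13 were higher and 1 lower (all genes 14.6% and 15.8%), with SP110 at 80.6 and 173 CPM (2.15, 1.64 to 2.84), UBE2L6 at 113 and 197 CPM (1.75, 1.39 to 2.22) and LGALS9 at 225 and 132 CPM (0.585, 0.480 to 0.714).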

How the data were processed

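The authors deposited raw UMI counts per gene and barcode for 2 droplet libraries made with a 3′ kit, per the labels' protocols. The genome build, and which aligner and cell caller made them, is not given in the sources used here. All 26761 distinct gene names matched the RefSeq table of ARS-UI_Ramb_v3.0, which served for names, Y-linkage and neighbours only. Sequences of the genes were not used here.

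Barcodes were kept from 500 UMIs and 200 genes upward and up to 15% mitochondrial UMIs, and the highest Scrublet scores (scanpy 1.11.5) were removed at 0.8% per 1000 cells, 523 and 715 cells. Classes were gated by marker UMIs per 10000 (B and monocyte 20, T 5) and at least 1 UMI of the lineage genes. These thresholds were set after the marker distributions were seen, without the interferon genes. There were 331 untreated and 307 A.G.-ES cells near the B threshold, from 15 to 25 per 10000. Counts were summed per library and class and given as CPM with exact Poisson intervals. Ratios carry exact conditional binomial intervals and shares of cells Clopper-Pearson intervals. The scripts were tested on simulated counts. TMM factors came from edgeR 4.0.16.

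The members and lists were chosen with earlier results of these data known. Named members had at least 50 UMIs over both libraries in a class and were the 6 highest and 6 lowest ratios, the 5 most counted, or called in opposite directions in B and CD8B T or NCR1-gated cells. For pathway lists 2 to 4 members were named. Values of named members in further classes, and members with fewer UMIs, were added after their values were seen. Alternatives covered scaling, count minimum, fold, gates, doublets, cell weight and thinning.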

Additional observations from a re-analysis of the deposited data

Results flagged for a closer look

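The log2 ratios of 3 genes lay on opposite sides of the 1.5-fold limits in B and CD8B T cells. The B value exceeded the CD8B T value by 3.23 for HERC6, by 2.79 for ISG15 and by 1.47 for EIF2AK2. The difference was not tested, since each group has 1 library. The ISG15 contrast depends on 1 untreated CD8B T cell that held 21 of 36 UMIs. With TMM scaling or centring, HERC6 alone of the 3 stayed beyond the 1.5-fold limit in CD8B T cells.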

How the results depend on the processing

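The summed log2 ratio kept its sign in each class under each alternative, except in NCR1-gated cells with at least 2 lineage UMIs (−0.024). In those cells it was also near 0 with doublets kept (0.029) and with equal weight per cell (0.035). TMM gave 0.36 in B, −0.15 in CD4 T, −0.093 in CD8B T, 0.44 in SOX13/RHEX T and 0.33 in NCR1-gated cells. Centring on the median of all genes gave 0.37, −0.16, −0.088, 0.43 and 0.32. A total without ribosomal, mitochondrial and haemoglobin genes gave −0.22 in CD4 T and −0.26 in CD8B T cells. Equal weight per cell gave 0.23 in B and −0.25 in CD4 T cells. Thinning gave 0.18 in B, −0.26 in CD4 T and 0.26 in SOX13/RHEX T cells and 0.57 in monocytes. At least 2 lineage UMIs gave −0.33 in CD8B T cells. Alternatives added after the data were seen gave −0.27 in CD4 T and −0.29 in CD8B T cells without cycling-marker cells, 0.23 in B cells without secretory or cycling UMIs and 0.41 in B cells with a FCER2 UMI. Without the 3 most counted genes the values were 0.50 in B, −0.24 in CD4 T and −0.33 in CD8B T cells and 0.92 in monocytes, where leaving out the most counted gene alone gave 0.76.

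Counts of called members depended more on the settings. The shares of all genes at 2-fold, at other count minimums, with doublets kept and under other scaling are not given here. Those counts are therefore without a background, apart from the TMM split of all called genes given above for CD8B T and CD4 T cells. In B cells 11 were higher at 2-fold. Without secretory or cycling UMIs 11 of 28 were higher (all genes 11.8%) and 1 lower (15.9%). In B cells with a FCER2 UMI 9 of 21 were higher (12.5%) and 0 lower (23.8%). In CD4 T cells 1 was higher with no count minimum, TMM, centring, doublets kept, at least 2 lineage UMIs, no cycling-marker cells, or no top cell per member. That was 1 of 28 with at least 2 lineage UMIs (all genes 11.4%) and 1 of 30 without cycling-marker cells (11.5%). Lower CD4 T members were 5 at a minimum of 100, 4 with TMM, 5 with centring and 1 at 2-fold. Lower CD8B T members were 6 with TMM or centring and 5 at 2-fold or without cycling-marker cells. Without cycling-marker cells that was 5 of 27, beside 27.1% of all genes. Higher SOX13/RHEX T members were 3 at a minimum of 100, 5 of 27 with at least 2 lineage UMIs (all genes 9.34%) and 3 at 2-fold. Lower SOX13/RHEX T members were 0 with TMM, centring or 2-fold. Higher NCR1-gated members were 2 at a minimum of 100, 8 with TMM or centring and 3 at 2-fold. Lower ones were 2 with no minimum, 1 with doublets kept and 5 of 18 with at least 2 lineage UMIs (all genes 23.1%). In that last setting 3 were higher in B and lower in NCR1-gated cells. Higher monocyte members were 8 at a minimum of 100 and 12 at 2-fold. Lower monocyte members were 0 with TMM, 2-fold, no cycling-marker cells (all genes 15.9%) or no top cell per member.

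Among 1600 values of single members under an alternative, 5 changed sign from a call. Thinning gave −0.067 for IFI44 in B, −0.37 for DHX58 in SOX13/RHEX T cells and −0.29 for PML in monocytes. ISG15 in CD8B T cells was at 0.16 without cycling-marker cells and 0.090 without the top cells. The cause of these changes was not tested, except that thinning, higher limits and fewer cells leave fewer UMIs. NCR1-gated cells under the T-marker threshold had 1 member higher (all genes 15.003%) and 3 lower (22.3%) of 9. Those at or over it had 3 higher (17.9%) and 2 lower (24.2%) of 20. Neither subset's sum left the interval of the class. No paired analysis was possible because each group has 1 library. Promoter motifs were not run. Members with few UMIs, such as IRF9, are limited by depth.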
